A study of Mus musculus with 200 samples.

Results

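Apod, Apoe, Clu, Abca1, Abcg1, Lcat and Mylip, the apolipoprotein and cholesterol export genes described here, were taken by name from the deposited count table and are 7 of its 56941 genes. They were chosen with results of closed head injury (CHI) against sham surgery in these mice already known. Their differences between CHI and sham mice are therefore given as a description, with no test. The sham mice are the control arm of those contrasts, so differences among them in the 7 genes are a description as well. Calls printed for either describe the fits, and differences between the sexes were the only ones in the 7 genes that did not draw on the choice.

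The adult brain makes its own cholesterol, since lipoproteins of the blood do not cross the blood–brain barrier in bulk. Astrocytes secrete lipid particles built on apolipoprotein E and clusterin, and the ATP-binding cassette transporters Abca1 and Abcg1 load cholesterol onto them. Lcat then esterifies the cholesterol, and neurons take the particles up through lipoprotein receptors, some of which the ubiquitin ligase encoded by Mylip marks for degradation. Liver X receptors (LXR), nuclear receptors activated by oxysterols, raise the transcription of Abca1, Abcg1, Apoe and Mylip. Apolipoprotein D, encoded by Apod, is a lipocalin that binds arachidonic acid and other small lipids, and it is known for its rise in the ageing and injured nervous system.

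Poly(A) RNA of 1 hemisphere per mouse was sequenced for 200 mice, perfused with PBS and killed 9, 24 or 72 h after surgery. CHI was a single impact to the intact skull under anaesthesia, and sham mice had the anaesthesia and scalp incision without the impact. The 61 C57BL/6J mice (4.4 to 6.8 months old) comprised 15, 14 and 14 CHI mice at 9, 24 and 72 h and 6 sham mice at each time. The 55 mice labelled IL-1R1 gKO (3.3 to 7.4 months) comprised 13, 12 and 12 CHI mice and 6 sham mice at each time. The 50 IL-1R1 eRestore mice (4.5 to 7.4 months) comprised 12, 9 and 12 CHI mice and 6, 5 and 6 sham mice. The 34 IL-1R1 nRestore mice (3.3 to 7.67 months) comprised 6, 8 and 6 CHI mice and 4, 5 and 5 sham mice. IL-1R1 is the signalling receptor for interleukin-1. The labels do not expand gKO, eRestore or nRestore, and the study's methods describe C57BL/6J mice only, so the allele, the promoter and the cells concerned are not given in the sources used here. Both sexes were used (98 mice labelled male and 102 labelled female), except that all nRestore mice at 72 h were labelled male. Mice killed at 9 h and mice killed later came from different experiments. Surgery was done in the morning, so that the time after surgery, the time of day and the experiment cannot be told apart between 9 h and later. Sham mice were also younger at 9 h (mean age by strain 3.725 to 4.667 months) than later (4.84 to 5.868 months). Comparisons of sham mice between times were not adjusted for age.

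Total estimated counts were 14857985 to 57355676 per mouse (median 20258936), and all 7 genes passed the filter on low counts in every comparison. Over CHI and sham mice, mean Il1r1 was higher in mice labelled gKO (10.2 ± 2.499 CPM, SD, n = 55) than in C57BL/6J mice (5.76 ± 1.996, n = 61). It was also higher in eRestore (8.049 ± 2.438, n = 50) and nRestore mice (9.69 ± 1.864, n = 34). Which exons the allele alters is not given, so the gene's total count does not check the label. In 2 of 98 mice labelled male, an eRestore sham mouse at 24 h and an nRestore CHI mouse at 72 h, Xist was high (629 and 534 CPM) and Ddx3y was 0. The 5 sham libraries lowest in neuron markers all came from the IL-1R1 strains at 24 and 72 h. Their summed neuron markers were 3840 to 4515 TPM against 4594 to 7411 in the other 62 sham mice, and mitochondrial transcripts took 19.7% to 21.9% of their TPM against a median of 16.1%. Abcg1 in these 5 libraries was 38.95 to 43.7 CPM, below the other 62 sham mice (56.8 to 102) and all CHI mice (49.6 or more), and Apoe was 1249 to 1584 CPM against a median of 1006. CHI libraries reached similar extremes (neuron markers from 3937 TPM, mitochondrial transcripts up to 21.2%) and none was left out on these grounds, so that leaving out the 5 libraries changes the sham groups only. Values without the 5 libraries, or without the 2 whose sex genes go against their label, are given for part of the genes and comparisons only.

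Sham mice showed a wide range of levels among the 7 genes (TPM, which is scaled for transcript length, n = 67). Apoe was at 3408 ± 440 TPM and ranked 24th of all genes, Clu was at 988 ± 86.8 TPM, and Apod was at 252 ± 67.9 TPM. Abcg1 (24.4 ± 4.49 TPM) and Lcat (21.9 ± 3.34 TPM) followed and differed by less than their spread. Mylip (8.98 ± 1.06 TPM) and Abca1 (8.26 ± 1.55 TPM) were lowest and also differed by less than their spread. Apod varied most between sham mice, with a coefficient of variation of 26.9%, against 8.78% for Clu.

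**Figure D1:**
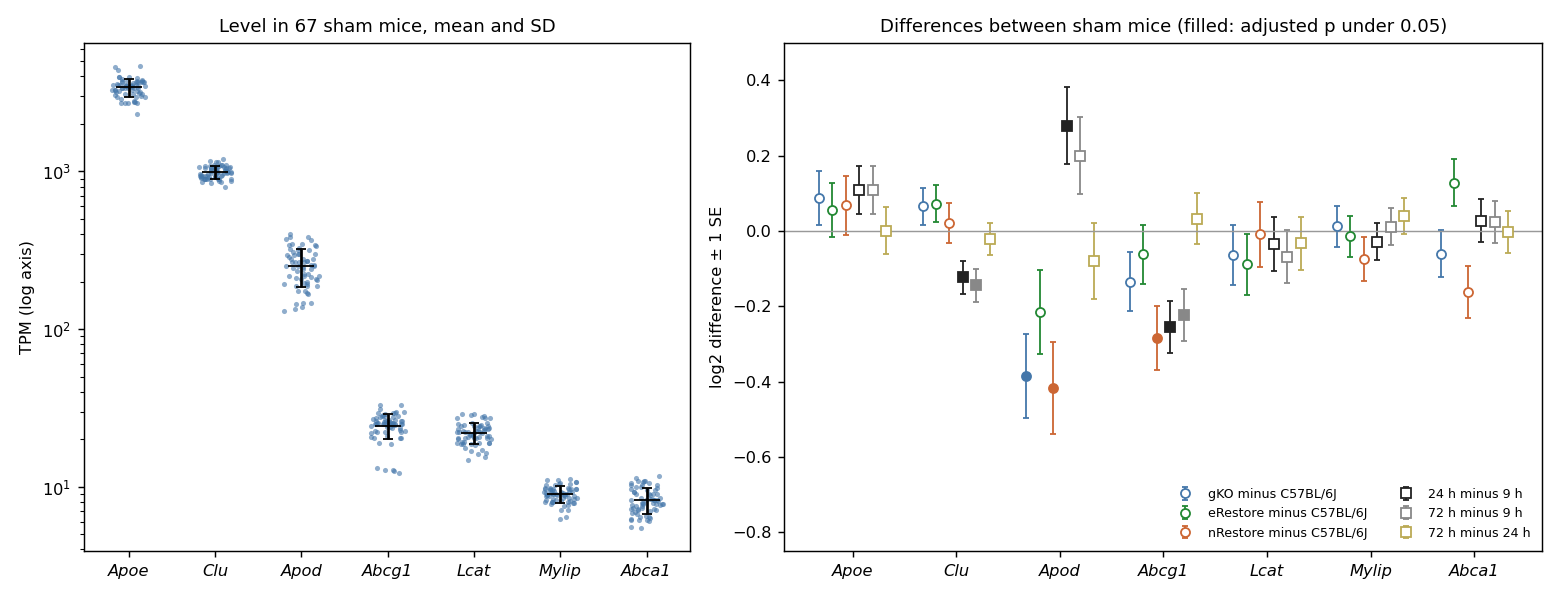
Left, mean and SD of the TPM of each gene in 67 sham mice on a log axis, from Apoe (3408 TPM) to Abca1 (8.26 TPM). Right, log2 differences between sham mice of the strains and of the time points with 1 SE as bars, filled where the adjusted p was under 0.05, which was so for Apod in 3 of the comparisons, Abcg1 in 3 and Clu in 2.

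CHI and sham mice were compared within each strain and time on log2 fold changes from edgeR's quasi-likelihood fit, with sex and age as covariates. A gene was called at a Benjamini–Hochberg adjusted p under 0.05 over all genes tested, and the standard error (SE) of each log2 fold change is given. In C57BL/6J mice 1 of 7 genes was called at 9 h (Abcg1, higher) beside 14.1% of all genes tested, 2 at 24 h (Apod and Abca1, higher) beside 0.404%, and 0 at 72 h beside 0%. In eRestore mice 2 were called at 9 h (Abcg1 higher, Lcat lower) beside 7.34%, 0 at 24 h beside 0% and 0 at 72 h beside 0.00605%. None of the 7 was called in gKO mice (0.199%, 0.0059% and 0% of all genes at 9, 24 and 72 h) or in nRestore mice (0.608%, 0% and 0.0121%). Beside these counts of 0, unadjusted p was under 0.05 for 1 gene in C57BL/6J mice at 72 h, 0, 1 and 1 in gKO mice, 1 and 0 in eRestore mice at 24 and 72 h and 0, 0 and 2 in nRestore mice, and DESeq2 with its own size factors called 1 gene (Abca1, nRestore at 72 h) where edgeR called 0. DESeq2 with gene-length offsets did not call it, and DESeq2 otherwise stands for the fit with its own size factors. The CHI and sham groups of Apod and Abca1 in C57BL/6J mice at 24 h, and of Abca1 in nRestore mice at 72 h, did not overlap. In the other 10 comparisons the groups overlapped for all 7 genes, where 1.32% and 0.0178% (C57BL/6J at 9 and 72 h), 0.0964%, 0.0885% and 0.012% (gKO), 0.613%, 0.0666% and 0.0423% (eRestore) and 5% and 0.135% (nRestore at 9 and 24 h) of all genes did not overlap. The genes were chosen on these same contrasts, so nothing is read from the shares.

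With the 4 strains fitted together, Abcg1 (log2 fold change 0.15, SE 0.04) and Lcat (−0.21, SE 0.07) were called at 9 h beside 26.5% of all genes. At 24 h Abca1 (0.24, SE 0.04) and Apod (0.27, SE 0.07) were called beside 1.96%. Without the 5 libraries low in neuron markers, Apod at 24 h was 0.23 (SE 0.07) and was no longer called. It was also not called with the experiment as a block in place of age (0.24) or with no filter on low counts (0.27). Without covariates, which here dropped strain as well as sex and age, it was 0.38 and was not called. At 72 h 0 were called by edgeR or DESeq2 beside 0.717%, with an unadjusted p under 0.05 for 3.

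**Figure D2:**
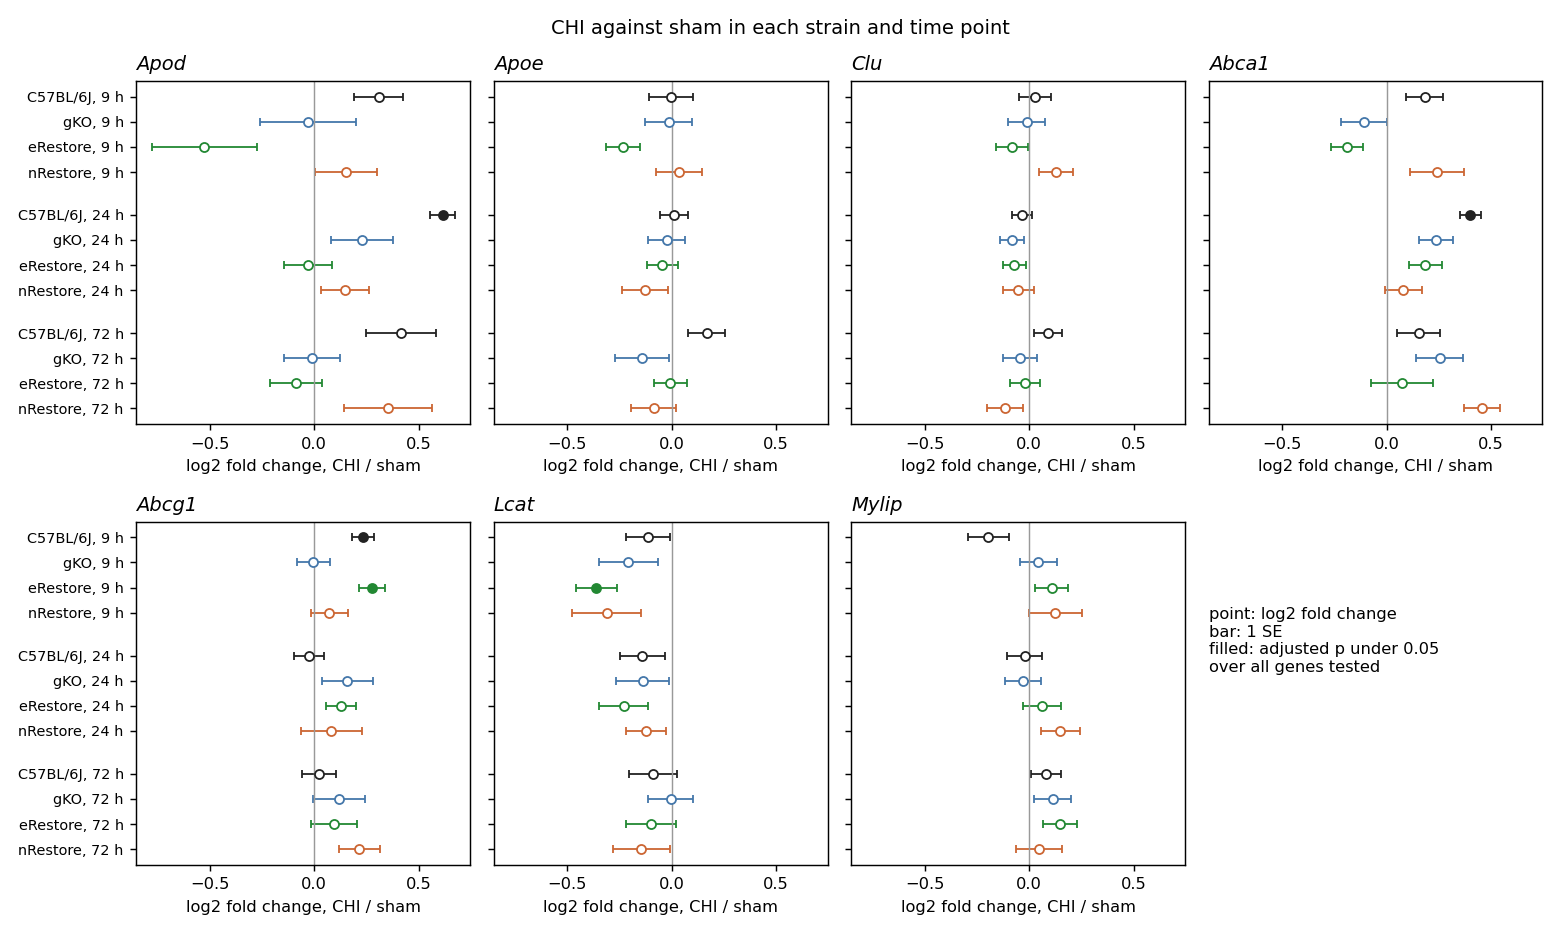
Log2 fold change of CHI against sham for each gene in the 4 strains at 9, 24 and 72 h, with bars of 1 SE and filled points where the gene was called. The highest values were those of Apod in C57BL/6J mice at 24 h (0.61) and Abca1 in nRestore mice at 72 h (0.46), and the lowest was Apod in eRestore mice at 9 h (−0.53), while Lcat lay at −0.01 in gKO mice at 72 h and lower in the other 11 comparisons.

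Apod, which oligodendrocytes, astrocytes and perivascular cells make in the brain, lies on the minus strand of chromosome 16 (GRCm39, chr16:31115010-31135355). In C57BL/6J mice at 24 h the 6 sham mice ran from 146.5 to 182.7 CPM with a median of 166.8 (CPM are counts scaled to a common library size with TMM factors), and the 14 CHI mice ran from 219 to 306 with a median of 257. Every CHI mouse lay above every sham mouse, a separation seen for 0.0905% of all genes tested in that comparison. The log2 fold change was 0.61 (SE 0.06), or 1.53-fold, and within the 3 experiments that held both groups it was 0.53 to 0.66. It was 0.57 to 0.64 when each sham mouse was left out in turn. In a bulk sample more cells of a type and more RNA per cell cannot be told apart. Of the oligodendrocyte markers 0 of 6 were called by edgeR there (unadjusted p under 0.05 for 3), and their summed level was 4859 to 7257 TPM in CHI mice and 5316 to 6247 in sham mice. For meningeal fibroblast markers, 0 of 6 were called (unadjusted p under 0.05 for 1), at 40.3 to 86.9 TPM in CHI mice and 42.2 to 67.2 in sham mice, and no marker of either list was at 0 in every mouse. Reactive astrocyte markers did move, with 2 of 6 called higher at 188.5 to 397 TPM against 133.8 to 181.5 TPM, and their part in the result was not tested.

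At 9 h, Apod in C57BL/6J mice was 95.25 to 189.4 CPM in sham mice (median 118.6) and 106.2 to 208 in CHI mice (median 164.4), and the groups overlapped. The log2 fold change was 0.31 (SE 0.12) and was not called, but DESeq2 with its own size factors called it (0.31), and so did edgeR without sham replicate 4, which was the highest sham mouse (0.48). With gene-length offsets DESeq2 did not call it (0.28). At 72 h the sham mice had a median of 163.5 CPM, with 1 mouse far below the rest (71.55), and the CHI mice ranged from 122.6 to 265 (median 194.9), with 8 of 14 CHI mice above all sham mice. That log2 fold change was 0.41 (SE 0.17), was not called, and ran from −0.06 to 0.78 within the 4 experiments. Without the low sham mouse it was 0.19.

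The other strains did not show the separation seen in C57BL/6J mice at 24 h. In gKO mice at 24 h Apod was 77.1 to 161.2 CPM in sham mice (median 114.5) and 107.9 to 216 in CHI mice (median 143.9), a log2 fold change of 0.23 (SE 0.15) that was 0.16 to 0.37 with each sham mouse left out and 0.39 without covariates. In eRestore mice the 5 sham mice had 124.3, 124.8, 137.7, 138.3 and 189.3 CPM and the 9 CHI mice 124.4 to 178.8 (median 140.2), a log2 fold change of −0.03 (SE 0.12). In nRestore mice the 5 sham mice had 94.7, 115.4, 131.4, 143.5 and 180 CPM and the 8 CHI mice 120.6 to 152.4 (median 124.5), a fitted log2 fold change of 0.15 (SE 0.11) although the CHI median was the lower. It was −0.04 without covariates and 0.01 without the sham mouse of the 5 libraries low in neuron markers. In all 3 strains the CHI mice fell inside or overlapped the range of the sham mice. Compared with C57BL/6J mice, the log2 fold change at 24 h was lower by 0.34 (SE 0.15) in gKO, 0.64 (SE 0.12) in eRestore and 0.63 (SE 0.12) in nRestore mice. The comparisons of a strain with C57BL/6J mice share the C57BL/6J values on which Apod was chosen, so these differences are a description too. None of the 7 genes was called in the 9 such comparisons, beside 0.00567%, 0.0114% and 0% of all genes at 9, 24 and 72 h for gKO, 0.817%, 0% and 0% for eRestore and 0.00555%, 0% and 0% for nRestore mice, with an unadjusted p under 0.05 for 0 to 3. Apod was called at 24 h by DESeq2 with its own size factors in eRestore and nRestore mice. Without the 2 libraries whose sex genes go against their label Apod was called in eRestore mice (−0.70, SE 0.12), and without the 5 libraries low in neuron markers in nRestore mice (−0.74, SE 0.11). At 24 h 4 of 9 eRestore, 5 of 12 gKO and 4 of 8 nRestore CHI mice came from an experiment with no sham mouse of their strain.

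**Figure D3:**
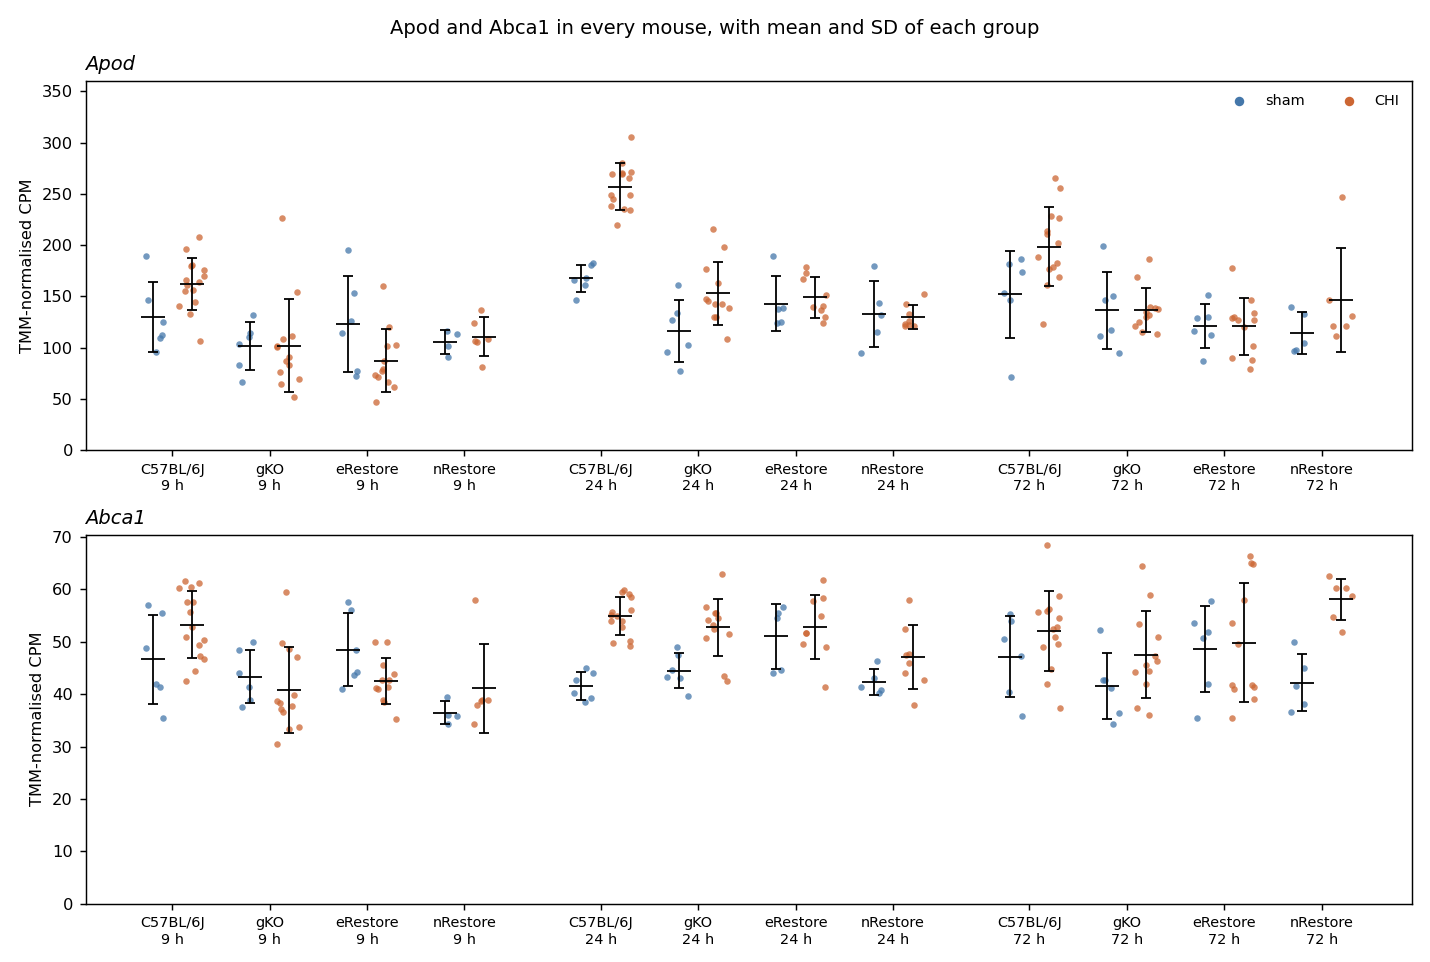
CPM of Apod and Abca1 in every mouse by strain and time, sham beside CHI, with the mean and SD of each group. In C57BL/6J mice at 24 h all 14 CHI mice sit above all 6 sham mice for both genes (Apod from 219 against at most 182.7, Abca1 from 49.3 against at most 45.05), and in nRestore mice at 72 h the same holds for Abca1 (51.9 against 49.9).

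In eRestore mice at 9 h Apod was lower after CHI, at 46.4 to 160 CPM (median 78.2, n = 12) against 72.3 to 194.8 (median 120.1, n = 6), with 4 CHI mice below all sham mice. The log2 fold change was −0.53 (SE 0.25) and was not called. Markers of meningeal fibroblasts moved with it, with 4 of 6 called lower at 15.9 to 49.7 TPM in CHI mice and 17.4 to 197.5 TPM in sham mice, and their part in the result was not tested. The remaining log2 fold changes of Apod were −0.03 (SE 0.23) and −0.01 (SE 0.13) in gKO mice at 9 and 72 h, −0.09 (SE 0.12) in eRestore mice at 72 h and 0.15 (SE 0.15) in nRestore mice at 9 h. With each sham mouse left out these ran from −0.07 to 0.03, from −0.09 to 0.11, from −0.17 to −0.03 and from 0.06 to 0.24. The same ranges at 24 h were −0.09 to 0.09 in eRestore and 0.01 to 0.20 in nRestore mice. In nRestore mice at 72 h it was 0.35 (SE 0.21), and without the CHI mouse whose sex genes go against its label, which had the highest level (247 CPM against 146.2 for the next), it was 0.14 (SE 0.11). Without the 5 libraries low in neuron markers Apod in gKO mice was 0.16 at 24 h and −0.09 at 72 h, and without the sham mouse whose sex genes go against its label it was −0.09 in eRestore mice at 24 h.

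Among sham mice Apod was lower in gKO and nRestore than in C57BL/6J mice. Sham C57BL/6J mice had 71.55 to 189.4 CPM (median 157.3, n = 18), gKO mice 66.4 to 199.4 (median 112.3, n = 18), eRestore mice 72.3 to 194.8 (median 126.3, n = 17) and nRestore mice 90.5 to 180 (median 114.4, n = 14). The ranges of all 4 strains overlapped. With time, sex and age in the edgeR model, the log2 difference was −0.38 (SE 0.11) in gKO and −0.42 (SE 0.12) in nRestore mice, both called, and −0.21 (SE 0.11) in eRestore mice, not called. These calls stand beside 4.82%, 13.5% and 4.65% of all genes, and in eRestore mice 0 of the 7 genes were called by edgeR or DESeq2, with an unadjusted p under 0.05 for 1. Without the 5 libraries low in neuron markers Apod in gKO mice was −0.34 and was not called. Without covariates, which here dropped time too, or with the experiment in place of age, Apod was not called in either strain. Oligodendrocyte markers moved with the difference in gKO mice, where 4 of 6 were called lower with a median log2 difference of −0.31, and their part in it was not tested. In nRestore mice endothelial markers were lower, as given for Abcg1, and their part was not tested either. Between times, Apod in sham mice rose from 115.7 ± 33 CPM at 9 h (SD, n = 22) to 140 ± 31.4 at 24 h (n = 22), a log2 difference of 0.28 (SE 0.10) that was called beside 48.9% of all genes. Meningeal fibroblast markers also rose there, with 4 of 6 called and a median of 0.63, and their part was not tested. Between 24 and 72 h 0 of the 7 genes differed in sham mice by edgeR or DESeq2, beside 0.03% of all genes and with an unadjusted p under 0.05 for 0.

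Apoe, the main apolipoprotein of brain lipid particles (chr7:19430034-19434947, minus strand), differed little between CHI and sham mice. Its log2 fold changes ran from −0.23 (SE 0.08) in eRestore mice at 9 h, where 11 of 12 CHI mice lay below the sham median (817 to 1186 CPM against 871 to 1291), to 0.17 (SE 0.09) in C57BL/6J mice at 72 h. In the latter the sham mice had 945 to 1204 CPM (median 1003) and the CHI mice 893 to 1594 (median 1177), with 6 of 14 CHI mice above all sham mice. Neither was called, but the eRestore value was called without sham replicate 4 (−0.29). The other 10 values lay between −0.14 and 0.04. The highest of these, in nRestore mice at 9 h with 4 sham mice, was 0.23 without sham replicate 3 and −0.06 without sham replicate 4. Without the 5 libraries low in neuron markers, Apoe in gKO mice was 0.03 in place of −0.02 at 24 h and −0.02 in place of −0.14 at 72 h. In eRestore mice at 72 h it was 0.10 in place of −0.01, and in nRestore mice 0.01 in place of −0.13 at 24 h and −0.02 in place of −0.09 at 72 h. Leaving out another sham mouse moved Apoe the other way, to −0.08 and −0.26 in gKO mice at 24 and 72 h. It reached −0.06 in eRestore mice at 72 h, and −0.22 and −0.17 in nRestore mice at 24 and 72 h. Between sham mice of different strains or times Apoe differed by at most 0.11 on the log2 scale, and 0 of these 6 differences were called by edgeR or DESeq2 (unadjusted p under 0.05 for 0).

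Clu encodes clusterin, also called apolipoprotein J, which is carried on the same particles and acts as an extracellular chaperone (chr14:66190200-66218999, plus strand). Its log2 fold changes after CHI lay between −0.11 (SE 0.09, nRestore at 72 h) and 0.13 (SE 0.08, nRestore at 9 h), the narrowest span of the 7 genes, and none was called. The value in nRestore mice at 9 h was 0.04 to 0.21 with each sham mouse left out. Clu without the 5 libraries low in neuron markers was 0.00 in place of −0.04 (gKO at 72 h), 0.04 in place of −0.02 (eRestore at 72 h) and 0.02 in place of −0.05 (nRestore at 24 h). With another sham mouse left out these reached −0.11, −0.06 and −0.12 in the same order. At 24 h C57BL/6J sham mice had 653 to 788 CPM (median 705) and the CHI mice 632 to 750 (median 688), and the groups overlapped. Between sham mice Clu fell with time, from 784 ± 94.1 CPM at 9 h (SD, n = 22) to 714 ± 46.2 at 24 h (n = 22) and 702 ± 76 at 72 h (n = 23). The log2 differences from 9 h were −0.12 (SE 0.04) and −0.14 (SE 0.04), both called, beside 48.9% and 46.8% of all genes. In both comparisons 4 of 6 neuron markers and 2 of 6 astrocyte markers were called lower (1 astrocyte marker higher at 72 h), and 4 and 5 of 6 meningeal fibroblast markers higher. Clu had r = −0.41 to summed neuron and 0.42 to summed astrocyte markers within groups over 200 mice, and their part was not tested.

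Abca1 encodes the transporter that moves cholesterol and phospholipid onto lipid-poor apolipoproteins (chr4:53030787-53159900, minus strand). At 24 h the 6 C57BL/6J sham mice had 38.55, 39.3, 40.2, 42.6, 43.9 and 45.05 CPM and the 14 CHI mice 49.3 to 59.96 (median 55). As for Apod, every CHI mouse lay above every sham mouse. The log2 fold change was 0.40 (SE 0.05), or 1.32-fold, and was 0.32 to 0.55 within the 3 experiments and 0.39 to 0.43 with each sham mouse left out. In gKO mice at 24 h, 10 of 12 CHI mice lay above all sham mice (42.6 to 62.8 CPM against 39.7 to 48.9), a log2 fold change of 0.24 (SE 0.08). The values in eRestore and nRestore mice at 24 h were 0.18 (SE 0.08) and 0.08 (SE 0.09), and their groups overlapped. In eRestore mice the CHI median was the lower (51.7 against 54.5 CPM), and without covariates the value was 0.04. Reactive astrocyte markers in C57BL/6J mice at 24 h were 188.5 to 396.7 TPM in CHI and 133.8 to 181.5 in sham mice. Microglia markers in gKO mice at 24 h were 304.6 to 362.6 TPM in CHI and 233.7 to 315.9 in sham mice. The part of these cell types in the values of Abca1 was not tested.

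At 72 h the highest value was that of nRestore mice, where the 5 sham mice had 36.5, 38.1, 41.6, 45 and 49.9 CPM and the 6 CHI mice 51.9, 54.7, 58.8, 60.2, 60.2 and 62.6. These groups did not overlap, as for 0.327% of all genes tested there. They hold the CHI mouse whose sex genes go against its label, and a sham library low in neuron markers. No value of Abca1 without that CHI mouse is given here. The log2 fold change of Abca1 was 0.46 (SE 0.09) and 0.39 to 0.57 within the 2 experiments. Reactive astrocyte markers did not overlap either (medians of 243.4 TPM in CHI and 163.6 in sham mice), with 0 of 5 tested called by edgeR (unadjusted p under 0.05 for 5), and their part in the result was not tested. Abca1 was not called by edgeR with all mice, but was without sham replicate 2, and it ran from 0.40 to 0.53 with each sham mouse left out. In the other strains at 72 h it was 0.15 (SE 0.10, C57BL/6J), 0.25 (SE 0.11, gKO) and 0.07 (SE 0.15, eRestore), the last −0.02 without the 1 sham mouse of the 5 libraries low in neuron markers. With each sham mouse left out the C57BL/6J value at 72 h ran from 0.08 to 0.26. At 9 h the values were 0.18 (SE 0.09) in C57BL/6J, −0.11 (SE 0.11) in gKO, −0.19 (SE 0.08) in eRestore and 0.24 (SE 0.13) in nRestore mice. Leaving out sham mice in turn gave 0.12 to 0.24, −0.17 to −0.05, −0.23 to −0.13 and 0.22 to 0.31 in the same order, and 0.06 to 0.12 in nRestore mice at 24 h. With the 4 strains together, the CHI effect on Abca1 was higher at 24 h than at 9 h by 0.25 (SE 0.08) on the log2 scale and was called beside 12.2% of all genes. Without covariates, which here dropped strain too, the difference was 0.20 and was not called. For Apod the same difference was 0.35 (SE 0.13) and was not called. For 72 h minus 9 h and 72 h minus 24 h, 0 of 7 genes were called by edgeR or DESeq2, beside 14.9% and 0.0389% of all genes and with an unadjusted p under 0.05 for 1 and 0. These values again draw on the contrasts of the choice. Between sham mice of different strains or times, 0 of 6 differences in Abca1 were called by edgeR or DESeq2 (−0.16 to 0.13, unadjusted p under 0.05 for 2).

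Promoters are shown for Apod and Abca1, the pair that separated CHI from sham mice at 24 h in C57BL/6J mice and in no other strain at that time. RefSeq promoters (table build GRCm38.p6) were given for 5 of the 7 genes, and the parts upstream of the RefSeq start were each found once in GRCm39, on the minus strand. The Apod stretch is chr16:31133654-31133876 (−250 to −28 from the start, inside the span of the gene, which has a start further upstream) and the Abca1 stretch is chr4:53159901-53160145 (−250 to −6). Capitals mark, in order, the match to a direct repeat of AGGTCA spaced by 4 bases (DR4, the kind of element that LXR binds) and the TATA box.
Apod: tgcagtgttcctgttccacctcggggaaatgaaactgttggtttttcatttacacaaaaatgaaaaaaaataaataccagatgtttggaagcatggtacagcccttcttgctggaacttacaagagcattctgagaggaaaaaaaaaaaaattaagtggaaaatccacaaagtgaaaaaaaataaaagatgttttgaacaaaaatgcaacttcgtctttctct
Abca1: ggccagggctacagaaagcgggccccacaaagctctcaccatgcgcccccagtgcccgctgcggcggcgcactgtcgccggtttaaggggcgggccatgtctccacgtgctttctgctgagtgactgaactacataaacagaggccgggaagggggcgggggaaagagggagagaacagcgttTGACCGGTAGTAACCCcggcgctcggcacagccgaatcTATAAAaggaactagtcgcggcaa
The 250 upstream bases of Apod, of which the printed stretch is a part, are 36.4% G and C. Those of Abca1 are 61.6%, against a median of 52.4% over 32851 promoters. In Abca1 the element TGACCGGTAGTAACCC, from −67 to −52, matches that repeat on the reverse strand with 3 mismatches, as 18.5% of promoters do somewhere in their 250 upstream bases on either strand. Lcat, another of the 7 genes, holds a match with 3 mismatches too, from −22 to −7. The Abca1 stretch also holds the TATA box TATAAA from −29 to −24 (12.4% of promoters), the E-box CACGTG at −147 (6.02%) and the GC box GGGCGG at −163 and −97 (32.7%). In the 250 upstream bases of Apod none of these, nor AGGTCA alone (14.0% of promoters) nor the NF-kB motif (7.25%), was found. Such matches describe letters and not binding sites.

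Abcg1 encodes the transporter that passes cholesterol to particles already loaded by Abca1, and in the brain neurons express it as well as glia (chr17:31276649-31336969, plus strand). At 9 h in C57BL/6J mice it was 74.1 to 102 CPM in sham mice (median 87.6, n = 6) and at least 82.75 in CHI mice (median 105.8, n = 15), with 9 CHI mice above all sham mice. In eRestore mice at 9 h it was 64.2 to 87.8 CPM in sham mice (median 77.2, n = 6) and 79.1 to 106.1 in CHI mice (median 95, n = 12), with 8 CHI mice above all sham mice and all 12 above the sham median. The log2 fold changes were 0.24 (SE 0.05) and 0.28 (SE 0.06), were 0.24 to 0.25 and 0.19 to 0.28 within experiments, and were called in both strains with any sham mouse left out. Without covariates Abcg1 in C57BL/6J mice was not called. At 9 h in gKO and nRestore mice they were −0.00 (SE 0.08) and 0.07 (SE 0.09), with overlapping groups, and ran from −0.07 to 0.03 and from 0.05 to 0.10 with each sham mouse left out. Neuron markers moved with Abcg1 in eRestore mice at 9 h, where 2 of 6 were called higher at 6278 to 7415 TPM in CHI mice and 5331 to 6628 TPM in sham mice. Of the same markers 0 of 6 were called in C57BL/6J mice (unadjusted p under 0.05 for 2), at 5537 to 7602 TPM and 5779 to 7411 TPM, and no neuron marker was at 0 in every mouse. Reactive astrocyte markers moved as well, with 5 of 6 called higher in C57BL/6J mice (136.3 to 421.1 TPM against 90.8 to 122.8) and 3 of 5 in eRestore mice (161.3 to 293.9 TPM against 120.8 to 180.3). Of 5 endothelial markers 2 were called higher and 1 lower in C57BL/6J mice (159.4 to 247.3 TPM against 129.4 to 185.1). In eRestore mice 0 of 5 were called (unadjusted p under 0.05 for 3), at 173.2 to 233.5 TPM against 96.1 to 197.4. The part of these cell types in the result was not tested.

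At 24 and 72 h the log2 fold changes of Abcg1 lay between −0.02 and 0.22, and none was called. Without the 5 libraries low in neuron markers Abcg1 was 0.07 in place of 0.16 and 0.01 in place of 0.12 in gKO mice at 24 and 72 h, −0.03 in place of 0.09 in eRestore mice at 72 h and 0.12 in place of 0.22 in nRestore mice at 72 h. With another sham mouse left out these reached 0.25, 0.18, 0.15 and 0.25 in the same order. In nRestore mice at 24 h the value of 0.08 (SE 0.15) became −0.16 (SE 0.10) without the sham mouse of the 5 libraries low in neuron markers, which had 38.95 CPM, and reached 0.22 with another sham mouse left out. Between sham mice Abcg1 was lower in nRestore than in C57BL/6J mice, at 64.5 ± 12.3 CPM (SD, n = 14) against 78.8 ± 11.4 (n = 18), a log2 difference of −0.28 (SE 0.09) that was called beside 13.5% of all genes. Endothelial markers were lower there too, with 3 of 5 called and a median of −0.28, as was 1 of 6 neuron markers, and their part was not tested. Without the 5 libraries the Abcg1 difference was −0.21 (SE 0.06) and still called, and with the experiment in place of age it was −0.17 and was not called. Abcg1 also fell between sham mice at 9 h (81.4 ± 10.4 CPM, n = 22) and at 24 h (68 ± 11.6 CPM, n = 22), a log2 difference of −0.25 (SE 0.07) that was called beside 48.9% of all genes. At 72 h (69.7 ± 13.8 CPM, n = 23) the difference from 9 h was −0.22 (SE 0.07), and without the 5 libraries −0.13 (SE 0.05), called both times, beside 46.8% of all genes with all sham mice. Neuron markers fell too between 9 and 24 h, with 4 of 6 called lower and a median of −0.20, and their part was not tested.

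**Figure D4:**
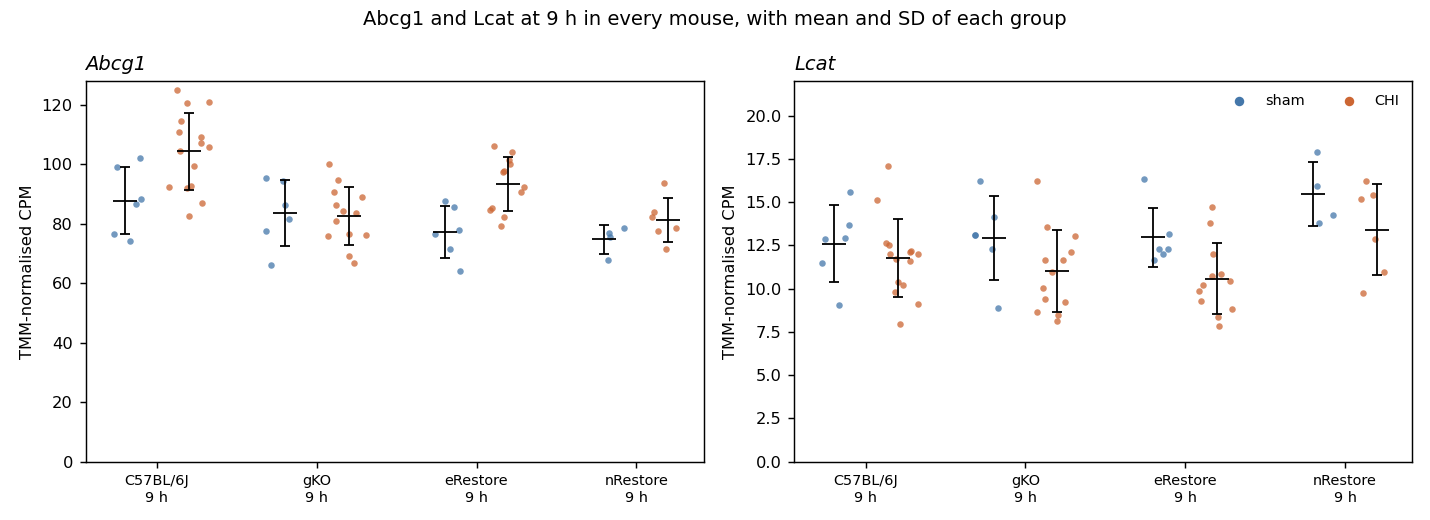
CPM of Abcg1 and Lcat at 9 h in every mouse by strain, sham beside CHI, with the mean and SD of each group. Abcg1 sits higher after CHI in C57BL/6J (median 105.8 against 87.6) and eRestore mice (95 against 77.2), and Lcat sits lower in eRestore mice (10.3 against 12.3), where 9 of 12 CHI mice lie below all 6 sham mice.

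Lcat encodes lecithin–cholesterol acyltransferase, which esterifies cholesterol on lipoproteins and which astrocytes make in the brain (chr8:106665839-106670046, minus strand). Its log2 fold change after CHI was −0.36 to −0.09 in 11 of 12 comparisons and −0.01 (SE 0.11) in gKO mice at 72 h, which became 0.08 without 1 sham library low in neuron markers. Without the other such libraries Lcat was −0.05 in place of −0.14 (gKO at 24 h), −0.02 in place of −0.10 (eRestore at 72 h) and −0.01 in place of −0.12 (nRestore at 24 h). The CHI median was the higher in C57BL/6J mice at 72 h (13.36 against 13.04 CPM), although the fitted value was below 0. The same held in eRestore mice at 24 h (12.71 against 11.63 CPM) and 72 h (11.53 against 11.5 CPM). In C57BL/6J mice at 72 h the log2 fold change was −0.57 to 0.19 within experiments, and above 0 in 3 of 4. In nRestore mice at 72 h it was −0.15, and −0.24 to −0.01 with each sham mouse left out. The lowest was that of eRestore mice at 9 h, where the sham mice had 11.7 to 16.3 CPM (median 12.3, n = 6) and the CHI mice 7.87 to 14.7 (median 10.3, n = 12). This gave a log2 fold change of −0.36 (SE 0.10), and −0.31 and −0.25 within the 2 experiments. It was called, but not without sham replicate 1, 2 or 5 (range −0.38 to −0.31), nor without covariates, nor with the experiment in place of age. At 9 h it was −0.11 (SE 0.11) in C57BL/6J, −0.21 (SE 0.14) in gKO and −0.31 (SE 0.16) in nRestore mice, and in each the groups overlapped. With each sham mouse left out these ran from −0.20 to −0.07, from −0.30 to −0.13 and from −0.41 to −0.21. Astrocyte markers in eRestore mice at 9 h were 1927 to 2340 TPM in CHI mice and 2077 to 2432 TPM in sham mice, with 0 of 6 called (unadjusted p under 0.05 for 1). Other markers moved in that comparison, with 2 of 6 for neurons and 3 of 5 for reactive astrocytes called higher and 4 of 6 for meningeal fibroblasts called lower. Within groups Lcat had r = −0.45 to summed neuron markers over 200 mice, and the part of these cell types in its value was not tested. Between sham mice of different strains or times 0 of 6 differences in Lcat were called by edgeR or DESeq2 (−0.09 to −0.01, unadjusted p under 0.05 for 0).

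Mylip, also known as Idol, encodes a ubiquitin ligase that sends lipoprotein receptors to the lysosome (chr13:45543215-45565501, plus strand). At 9 h C57BL/6J mice had 13.4 to 17 CPM of Mylip after sham surgery (median 14.5) and 10.1 to 18.4 after CHI (median 12.8), with 9 of 15 CHI mice below all sham mice and 1 above all of them. The log2 fold change of −0.20 (SE 0.10) was not called. In the other strains at 9 h it was 0.04 (SE 0.09) in gKO, 0.11 (SE 0.08) in eRestore and 0.13 (SE 0.13) in nRestore mice. With each sham mouse left out these ran from 0.01 to 0.12, from 0.06 to 0.19 and from 0.04 to 0.34. At 24 and 72 h the values lay between −0.03 and 0.15, with none called. Without the libraries low in neuron markers Mylip was 0.03 in place of −0.03 (gKO at 24 h), 0.07 in place of 0.11 (gKO at 72 h) and 0.05 in place of 0.15 (nRestore at 24 h). Without those whose sex genes go against the label it was 0.03 in place of 0.06 (eRestore at 24 h) and 0.13 in place of 0.05 (nRestore at 72 h). Between sham mice of different strains or times 0 of 6 differences in Mylip were called by edgeR or DESeq2 (−0.08 to 0.04, unadjusted p under 0.05 for 0).

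The sexes did not differ detectably in the 7 genes. Across all 200 mice the log2 differences, male minus female, ran from −0.10 (Lcat, SE 0.04, adjusted p = 0.285) to 0.02, and 0 were called by edgeR or DESeq2 beside 0.41% of all genes, with an unadjusted p under 0.05 for 1. For the CHI effect in males minus that in females, with the 4 strains together, 0 were called at 9, 24 and 72 h beside 0%, 0% and 0.00565%, with an unadjusted p under 0.05 for 0, 1 and 0.

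Other genes of the pathway were followed in 5 lists that hold no member: further apolipoproteins, sterol transporters and lipoprotein lipid enzymes, LXR genes and targets, lipoprotein receptors, and cholesterol synthesis. At 9 h in C57BL/6J mice Pltp, which transfers phospholipid between lipoproteins, fell by 0.72 (SE 0.12) and the transporter Abca8a fell by 0.52 (SE 0.12) on the log2 scale, while the HDL receptor Scarb1 rose by 0.45 (SE 0.12). These were the 3 of 18 transporters and enzymes called, beside 14.1% of all genes there, and the list's median was 0.02 against −0.01 over all genes. Of 15 LXR genes and targets tested 1 was called higher (Rxra, the partner of LXR, 0.35, SE 0.06) and 3 lower (Rxrg −1.39, Pltp, and Srebf1, a regulator of fatty acid synthesis, −0.19), with a median of 0.00. Of 13 receptors and partners the VLDL receptor gene Vldlr was called lower (−0.25, SE 0.06), with a median of −0.11. Of 24 synthesis genes 2 were called higher, Fdft1 (0.35) and Lss (0.25), and 2 lower, among them Cyp51 (−0.33), with a median of −0.04. At 24 h, when Apod and Abca1 were higher, Srebf1 was called higher (0.27, SE 0.05) and the early synthesis enzymes Idi1 (−0.24, SE 0.06) and Hmgcs1 (−0.22, SE 0.04) lower, beside 0.404% of all genes, with medians of −0.02 over 15 LXR genes and −0.08 over 24 synthesis genes against −0.00 over all genes.

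Pltp was also called lower at 9 h in gKO (−0.63, SE 0.11, beside 0.199% of all genes) and eRestore mice (−0.56, SE 0.16, beside 7.34%). In eRestore mice at 9 h Abca8a (−0.67), the lysosomal sterol carrier Npc2 (−0.26) and the scavenger receptor Cd36 (−0.93) were called lower, and Abca3 (0.26) and Abcg4 (0.23) higher. Meningeal fibroblast markers were lower there too, with 4 of 6 called and medians of 24.4 TPM in CHI and 62.9 in sham mice. In gKO mice their medians were 26.4 and 54.6 TPM and in C57BL/6J mice 28.2 and 31.7, with 0 of 6 called in each (unadjusted p under 0.05 for 0 and 2). Their part in the falls of Pltp, Abca8a, Npc2 and Cd36 was not tested. With the 4 strains together at 9 h (26.5% of all genes called) Apoh was called higher (0.90, SE 0.21) as the only call among 2 further apolipoproteins tested, and Ch25h, which makes 25-hydroxycholesterol, was called higher (0.91, SE 0.27). At 24 h (1.96%) Srebf1 (0.17, SE 0.04) was called higher and Idi1 (−0.18), Mvd (−0.17) and Sc5d (−0.10) lower. At 72 h (0.717%) Trem2, a microglial lipid receptor (0.37, SE 0.07), and Lpl, lipoprotein lipase (0.21, SE 0.04), were called higher. Microglia markers rose in the same comparison, with 4 of 6 called higher and a median of 0.20, and their part in these values was not tested.

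Among sham mice the largest strain differences of these lists were in Lipg, endothelial lipase, and Ch25h. Lipg was lower than in C57BL/6J mice by 1.81 (gKO), 1.55 (eRestore) and 2.19 (nRestore) on the log2 scale, with adjusted p = 1.06e-07, 3.70e-06 and 7.97e-09 by edgeR. Ch25h was lower by 1.63, 1.25 and 2.33 in the same order (adjusted p = 0.00276, 0.0314 and 9.98e-05), beside 4.82%, 4.65% and 13.5% of all genes called. Values of Lipg and Ch25h with the experiment in place of age are not given here. Endothelial markers were also lower in sham nRestore mice, as given for Abcg1, and their part was not tested. From 9 to 24 h in sham mice 4 of 24 synthesis genes were called higher and 13 lower, with a median of −0.15 against 0.01 over all genes, and Rxrg rose by 2.18 (SE 0.23), beside 48.9% of all genes called. Neuron markers fell and meningeal fibroblast markers rose there, as given for Abcg1 and Apod, and their part was not tested.

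Within groups the 7 genes varied in different company. Pearson's r was computed over the 200 mice on log2 CPM after the mean of each strain, surgery and time group was subtracted, among 14618 genes with a mean of at least 1 CPM. The 200 points share sequencing and normalisation and differ in cell content, so r is given as a description. Apod varied most (SD 0.33 on the log2 scale, against a median of 0.19 over these genes) and was most like Gsn (r = 0.70), Cldn11, a claudin of the myelin sheath (0.69), and Clic4 (0.65). Apoe was most like the astrocyte genes Mlc1 (0.85) and Aldoc (0.82) and like Cpe (0.81), and Lcat was most like Aldoc (0.69), Prdx6 (0.67) and Cxcl14 (0.65). Clu was most like Rpsa (0.84), Gstm1 (0.84) and Abhd4 (0.83), and Apoe, Clu and Lcat were like each other (r = 0.57 to 0.78). Abcg1 was most like Sez6l2 (0.92), Atg9a (0.88) and Coro2b (0.88), with r = 0.75 to summed neuron markers, against −0.63 for Apoe. Abca1 was most like Fat1 (0.70), Usp24 (0.70) and Zbtb20 (0.69), and its r to Apod was −0.08, although both separated CHI from sham mice in C57BL/6J mice at 24 h. Mylip had no close neighbour, the highest being Mex3b (0.42), Zfp36l1 (0.40) and Sox4 (0.38). Apod had r = 0.52 to oligodendrocyte, 0.43 to endothelial and 0.37 to meningeal fibroblast markers.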

How the data were processed

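The authors aligned trimmed paired-end reads of poly(A) libraries to GRCm39 with STAR and quantified them with Salmon through the nf-core pipeline. They deposited 2 tables. In the authors' count table the values are estimated counts per gene, not normalized (10.8% of values are not whole). The TPM that the authors deposited are scaled for transcript length and library size. Strandedness is not given in the sources used here. Apod, Clu and Lcat share exon bases with opposite-strand genes of the table (Gm41442, Scara3 and Gm16156, GENCODE annotation of GRCm39). Whether reads of the opposite strands were told apart there is not known.

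Each sample is 1 mouse, grouped by its labels for strain, surgery and time. After rounding the estimated counts, edgeR 4.0.16 (under R 4.3.3) was used with TMM factors and its robust quasi-likelihood F test. A gene entered a comparison if 10 or more counts were reached in a number of mice equal to the size of the smaller group. Covariates were sex and age, and p-values were adjusted by Benjamini–Hochberg across every gene tested. Fits of the 4 strains together also held strain, by time where CHI effects of different times were compared. Sham strain comparisons held time, sex and age, and sham time comparisons held strain and sex but not age. Without covariates all of these were dropped, except time where CHI effects of different times were compared. SE is the absolute log2 fold change divided by the square root of F. Sham mice of all strains were fitted together for strain and time, and all mice for sex. CPM used TMM factors over all 200 mice. Fits were tested on simulated data. Total estimated counts were 14857985 to 57355676 per mouse. Reads carry no molecular identifiers, and errors reflect the spread between mice.

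The 7 genes and all lists of other genes and markers were chosen with earlier results of these data known. Named besides the 7 are up to 3 higher and 3 lower called genes per list and comparison, the 3 genes most like each member, and genes used to check labels. Some genes that this rule names are not reported here. Alternatives were DESeq2 1.42.0 with its own size factors or gene-length offsets, RLE factors, no filter beyond 1 count, no covariates, age replaced by the experiment and each sham mouse left out. Leaving out the 2 libraries whose sex genes go against the label, or the 5 sham libraries lowest in neuron markers, was added after seeing the data. No column of the authors' own comparisons was used, and no 2 of the 19900 pairs of libraries were identical.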

Additional observations from a re-analysis of the deposited data

Results flagged for a closer look

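In 10 of 112 group and gene combinations of 4 to 10 mice, the highest or lowest mouse lay far from the others by Dixon's criterion, which chance alone meets in about 1 of 20. For Apod these were a C57BL/6J sham mouse at 72 h (71.55 CPM against a group median of 163.5), an eRestore sham mouse at 24 h (189.3 CPM, next 138.3) and an nRestore CHI mouse at 72 h (247 CPM, next 146.2). The last is a library whose sex genes go against its label. For Apoe they were a C57BL/6J sham mouse at 72 h (1204 CPM, next 1013), an eRestore sham mouse at 72 h (1402 CPM, next 1036), which is among the 5 libraries low in neuron markers, and a gKO sham mouse at 9 h (853.2 CPM, next 983). For Clu a gKO sham mouse at 9 h was low (677 CPM, next 802), and for Abca1 an nRestore CHI mouse at 9 h was high (57.91 CPM, next 38.9). For Abcg1 a gKO sham mouse at 24 h was low (39.05 CPM, next 61.8), which is also among the 5 libraries low in neuron markers. For Lcat an eRestore sham mouse at 9 h was high (16.32 CPM, next 13.2).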

How the results depend on the processing

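No paired analysis was possible because the labels pair no CHI mouse with a sham mouse. The experiment, which holds several mice of a group, was used as a block in place of age. Apod and Abca1 in C57BL/6J mice at 24 h were both called under every alternative run, and with each sham mouse left out. Other counts of the 7 genes called moved. In C57BL/6J mice at 9 h the count of 1 became 2 with DESeq2 and its own size factors (1 with gene-length offsets) and 0 without covariates, and was 1 to 2 with a sham mouse left out (2 without replicate 4). In eRestore mice at 9 h the count of 2 became 1 without covariates and 1 with the experiment in place of age, and was 1 to 3 with a sham mouse left out (1 without replicate 1, 2 or 5 and 3 without replicate 4). In nRestore mice at 72 h the count of 0 became 1 with DESeq2 and its own size factors (0 with gene-length offsets) and was 0 to 1 with a sham mouse left out (1 without replicate 2). With the 4 strains together at 24 h the count of 2 became 1 with no filter, 1 without covariates, 1 with the experiment in place of age and 1 without the 5 libraries low in neuron markers. For the CHI effect in eRestore minus that in C57BL/6J mice at 24 h, 0 became 1 with DESeq2 and its own size factors and 1 without the 2 libraries whose sex genes go against the label. For nRestore minus C57BL/6J mice at 24 h, 0 became 1 with DESeq2 and its own size factors, 1 without covariates and 1 without the 5 libraries. For the CHI effect at 24 h minus that at 9 h, 1 became 0 without covariates. In sham mice, gKO minus C57BL/6J, 1 became 0 with no filter, without covariates, with the experiment in place of age and without the 5 libraries. In sham nRestore minus C57BL/6J mice, 2 became 1 without covariates and 0 with the experiment in place of age. Without covariates, the fits of the 4 strains together also lost strain, and the sham strain comparisons lost time. The cause was not tested. No called value changed direction under these alternatives. The mice of the sham strain comparisons come from different experiments in part, and the number of sham mice, 4 to 6 per group, limits the precision.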
